A study of Mus musculus with 101 samples.

Results

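Musk, Pf4 and Calml3 are genes of differentiated cells whose captured regions had the highest mean DNA methylation among the regions that the authors named Lineage-associated, in mouse embryonic stem cell lines. They are set beside Ehmt1 and Ehmt2, whose regions lay at the unmethylated end of that category. Members were chosen by gene and by measured level: the Lineage-associated regions that overlap, or lie within 5 kb of, the gene body of Musk, Pf4 or Calml3, and those of Ehmt1 and Ehmt2. That gave 1 region for each gene, 5 of the 868 regions in the deposited table and 5 of its 21 Lineage-associated regions. Because levels chose the members, levels, ranks and the contrast of the 3 genes with Ehmt1 and Ehmt2 are given as descriptions without a test.

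The study measured methylation by enzymatic methyl sequencing (EM-seq), in which enzymes rather than bisulfite convert unmethylated cytosines, after capture with a Twist panel. The lines came from Diversity Outbred mice, an outbred stock descended from several inbred strains, and all of them were cultured with serum, LIF and 2i, which is the name for 2 kinase inhibitors used together to hold embryonic stem cells in the naive state. The deposited tables hold 85 columns, each treated here as a line, and the prefix of the line name is the grouping used here: 28 lines carry B1, 18 carry B2, 20 carry B3A and 19 carry B3B. The sources used here do not say what the prefix means, and no line is an untreated or wild-type control for another. Of the columns, 16 name lines with 2 libraries in the labels, and the sources used here do not say which of them such a column holds. A final N ends the names of 6 B1, 0 B2, 16 B3A and 9 B3B columns. In 1 pair of B1 columns, each with a title of its own, the names differ only by that N, and the labels do not say whether they are the same line. Both are counted, so n = 28 and n = 85 may hold 1 line more than once. Read counts are not part of the tables, and depth is therefore unknown for every value. Nothing in the labels says that the lines of a prefix were independent cultures, so the p-values reflect only how far these columns scatter, which may be partly technical.

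In mammals most DNA methylation sits on cytosines followed by guanine (CpGs). Promoters rich in CpGs are usually unmethylated in every tissue, while promoters poor in CpGs are often methylated in cells that do not use the gene. Naive embryonic stem cells kept in 2i are known for low methylation over most of the genome. Musk encodes the muscle-specific receptor tyrosine kinase, which gathers acetylcholine receptors at the junction of nerve and muscle. Pf4 encodes platelet factor 4, a chemokine that megakaryocytes make and platelets store in granules. Calml3 encodes a calmodulin-like protein known in humans from stratified epithelia. Ehmt1 and Ehmt2 encode GLP and G9a, partner enzymes that methylate lysine 9 of histone H3 and are used in most cells, stem cells included. No expression was measured here.

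The sequences below are shown because the regions of Musk, Pf4 and Ehmt2 share bases with these start-site windows, and the windows show how sparse or dense the CpGs are. They are RefSeq windows of GRCm38.p6, the same assembly as mm10, each running from 250 bases before to 50 after an annotated gene start, read on the plus strand, with every CpG in capitals. The Musk window is chr4:58285712-58286011, the Pf4 window is chr5:90772185-90772484 and the second of 2 Ehmt2 windows is chr17:34898720-34899019.
Musk: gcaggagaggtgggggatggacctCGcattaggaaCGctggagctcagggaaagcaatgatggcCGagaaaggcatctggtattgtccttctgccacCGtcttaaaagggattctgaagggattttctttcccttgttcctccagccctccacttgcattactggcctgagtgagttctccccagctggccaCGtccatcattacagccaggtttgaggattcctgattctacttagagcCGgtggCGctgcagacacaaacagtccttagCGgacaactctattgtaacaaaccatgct
Pf4: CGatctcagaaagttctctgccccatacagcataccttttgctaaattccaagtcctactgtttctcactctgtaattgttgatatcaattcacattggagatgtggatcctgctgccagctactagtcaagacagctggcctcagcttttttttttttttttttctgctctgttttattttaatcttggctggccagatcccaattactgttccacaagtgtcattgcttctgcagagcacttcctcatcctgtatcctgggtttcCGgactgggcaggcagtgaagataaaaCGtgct
Ehmt2: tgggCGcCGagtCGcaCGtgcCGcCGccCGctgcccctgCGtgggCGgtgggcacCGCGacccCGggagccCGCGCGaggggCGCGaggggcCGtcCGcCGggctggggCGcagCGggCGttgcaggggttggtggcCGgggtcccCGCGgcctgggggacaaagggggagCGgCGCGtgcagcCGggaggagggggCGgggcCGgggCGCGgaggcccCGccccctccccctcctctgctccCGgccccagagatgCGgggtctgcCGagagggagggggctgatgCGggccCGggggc

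The Musk window holds 8 CpGs, close to the median of 7 over 32851 RefSeq windows of the same length, and the Pf4 window holds 3. The Ehmt2 window printed here holds 40, the other Ehmt2 window holds 28 and the Ehmt1 window holds 34. At least as many CpGs as in the Musk window occur in 48.7% of all windows, at least as many as in the Pf4 window in 76.7%, as in the Ehmt1 window in 7.73%, and as in the printed Ehmt2 window in 3.91%. A CpG was searched as the letters CG, which read the same on both strands, and 94.6% of all windows hold at least 1. Calml3 has no entry in that table.

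The captured region of Musk is chr4:58285342-58285948 (mm10). It ends 14 bases before the start site of the printed window, and 220 of its 607 bases lie inside the RefSeq gene body, which has a start further upstream. Of the 8 capitalised CpGs of the Musk sequence, the first 5 lie in the region. The Pf4 region, chr5:90772197-90772697, runs from 238 bases before to 262 after the start site. It holds the last 2 capitalised CpGs of the Pf4 sequence, at +17 and +44 from the start. The Calml3 region, chr13:3804144-3804623, covers 175 bases at the higher-coordinate end of the gene and 305 bases beyond it. The region of Ehmt1, chr2:24918752-24919377, lies inside the gene, from 232 to 857 bases after its start site on the minus strand. That of Ehmt2, chr17:34898493-34898912, also lies inside the gene and holds 30 of the 40 capitalised CpGs. The annotation used here has no exons, so exonic and intronic bases are not told apart.

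Values were present for all 5 regions in all 85 lines. Methylation of the Musk region was 6.93% in the lowest line, 47.4% at the median and 88.1% in the highest line, with a mean of 48.8% ± 22.1 (SD, n = 85). Pf4 had 8.65%, 48.9% and 90.2% at the same points, with a mean of 48.2% ± 22.1 (SD, n = 85). Calml3 had 2.33%, 38.7% and 88.6%, with a mean of 41.5% ± 22.3 (SD, n = 85). Each gene was therefore sparsely methylated in some lines and densely in others, with no single level typical of the culture. Musk lay under 20% in 11 lines and over 80% in 9, Pf4 in 13 and 6, and Calml3 in 16 and 3.

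Ehmt1 had 0%, 0.181% and 1.67% in the lowest, median and highest line, with a mean of 0.253% ± 0.282 (SD, n = 85). Ehmt2 had 0%, 0.151% and 4.46%, with a mean of 0.585% ± 0.850 (SD, n = 85). A value of 0 was recorded in 7 lines for Ehmt1 and in 33 for Ehmt2, and with the depth unknown no upper limit can be set on it. In every line the lowest of Musk, Pf4 and Calml3 exceeded the higher of Ehmt1 and Ehmt2. The gap was between 2.22 and 85.6 percentage points, with a median of 38.3.

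**Figure D1:**
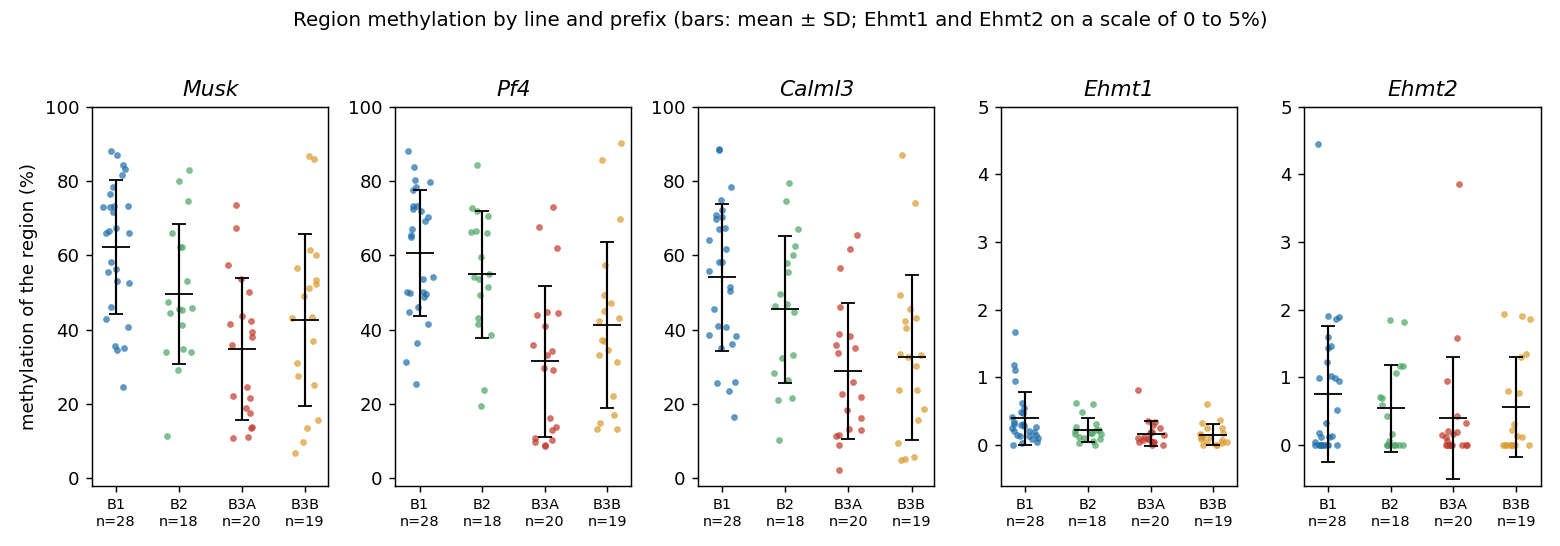
Methylation in percent of the 5 regions (vertical axes, 0 to 100% for Musk, Pf4 and Calml3 and 0 to 5% for Ehmt1 and Ehmt2) in each line, by prefix of the line name; each point is a line and bars give the mean ± SD. Musk, Pf4 and Calml3 span most of the scale in every prefix, with B1 highest and B3A lowest on average, and no Ehmt1 or Ehmt2 value exceeds 4.46%.

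Among the 21 Lineage-associated regions the order of means began with Musk, Pf4 and Calml3, followed by Ly86 at 37.3% and A330102I10Rik at 36.4%. The median of the category was 13.4%. Musk exceeded Pf4 by 0.543 ± 8.52 percentage points within lines and was the higher of the pair in 46 of 85 lines, so their order does not stand out from the spread. Pf4 exceeded Calml3 by 6.71 ± 7.36 points and in 69 of 85 lines, and Calml3 exceeded Ly86 by 4.21 ± 6.68 points and in 65 of 85 lines, both less than 1 SD of the within-line difference. Ly86 encodes MD-1, the partner of an immune receptor of B cells and myeloid cells, and it is the region next below the 3 genes. At the other end stood Ehmt2, Pou6f1 at 0.324% and Ehmt1, and these too differed from each other within lines by less than the SD of the difference: 0.262 ± 0.767 points for Ehmt2 minus Pou6f1 and 0.0706 ± 0.344 for Pou6f1 minus Ehmt1. Otx2, a homeobox gene of the forebrain, lay next above Ehmt2 at 0.822%.

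**Figure D2:**
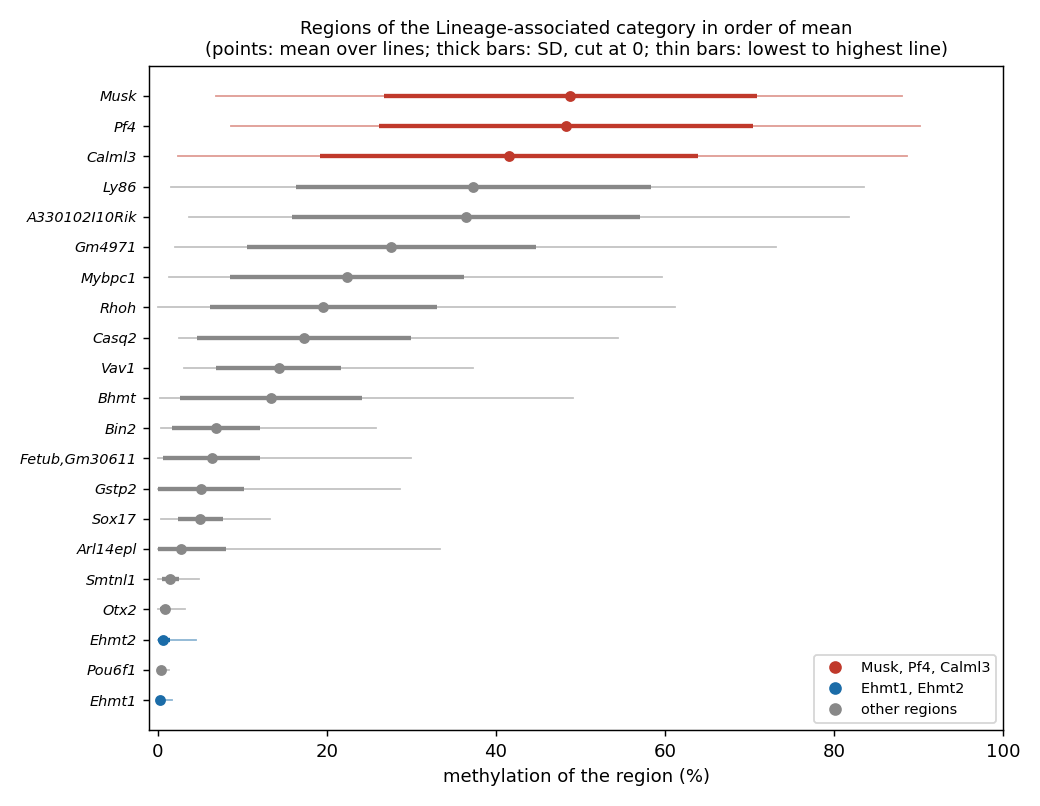
Mean methylation in percent (points) of the 21 Lineage-associated regions over lines, in order of mean, with the SD (thick bars) and the lowest and highest line (thin bars). Musk, Pf4 and Calml3 (red) lead with means of 48.8%, 48.2% and 41.5%, and Ehmt2 and Ehmt1 (blue) lie at 0.585% and 0.253%.

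Unless stated otherwise, comparisons between regions used the 787 regions, of any category, that had values in 80% of the lines or more. Single CpGs were tested apart from these kept regions, and some alternatives used other numbers of regions. Among the 787 kept regions Musk ranked 23rd, Pf4 29th and Calml3 78th by mean, and Ehmt2 and Ehmt1 ranked 731st and 775th. The median mean of the kept regions was 15.7% and their median SD between lines was 11.4 points. A mean under 1%, as at Ehmt1 and Ehmt2, was found at 89 kept regions, or 11.3%.

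The 3 genes moved together from line to line. Their order within a line was Musk, Pf4, Calml3 in 31 lines and Pf4, Musk, Calml3 in 28, while Calml3 led in 5. All 3 were at or under 50% in 39 lines, all 3 were above it in 28, and they fell on different sides in 18. Of the 28 lines with all 3 above 50%, 17 carried B1, 6 B2, 3 B3A and 2 B3B. Of the 10 lines with all 3 under 20%, 0 carried B1, 1 B2, 5 B3A and 4 B3B.

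The extremes show how far a whole line shifted. In the line with the highest mean of the 3 genes, a B1 line, Musk had 87.1%, Pf4 88.0% and Calml3 88.3%. In the line with the lowest, a B3A line, they had 10.7%, 9.08% and 2.33%. The mean over the 782 kept regions other than the 5 members, here the library mean, was 43.7% in that B1 line and 3.01% in that B3A line. Ehmt1 had 0.341% in the B1 line and 0.111% in the B3A line, and Ehmt2 had 4.46%, its highest value, in the B1 line and 0% in the B3A line.

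Across lines each of the 3 genes followed the library mean, which was 18.9% ± 10.04 (SD, n = 85). Pearson's r with the library mean was 0.942 for Musk, 0.955 for Pf4 and 0.969 for Calml3, and Spearman's rho was 0.954, 0.959 and 0.971 (n = 85 lines each). Without the 2 lines farthest from the median library mean, r was 0.942, 0.958 and 0.966. Each point of library mean went with 2.07 points of Musk, 2.11 of Pf4 and 2.15 of Calml3. These r are descriptions: the regions of a line share a library and its depth, and the median r over the 782 other regions was 0.872. Among the 134 other kept regions with a mean within 5 points of the range of the 3 genes, the median r was 0.951, the median slope 2.00 and the median SD 21.1 points. Regions of like mean thus had r, slopes and SDs near those of Musk, Pf4 and Calml3.

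Ehmt1 and Ehmt2 did not move with the library mean in this way. Pearson's r was 0.0866 for Ehmt1 and 0.274 for Ehmt2, with rho of 0.152 and 0.273 (n = 85 lines each). The other Lineage-associated regions with means under 1% also had low r, of 0.316 at Otx2 and 0.164 at Pou6f1. A low r was therefore not particular to Ehmt1 and Ehmt2 among regions near 0. Without the 2 farthest lines, r was 0.0764 for Ehmt1 and 0.130 for Ehmt2, so much of Pearson's r at Ehmt2 over all lines rests on those lines.

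Within prefixes r with the library mean ranged from 0.920 in B2 to 0.956 in B3A for Musk, from 0.934 in B2 to 0.968 in B3A for Pf4, and from 0.950 in B3B to 0.971 in B3A for Calml3. For Ehmt1 it ranged from -0.203 in B3A to 0.293 in B2, and for Ehmt2 from -0.0428 in B3A to 0.421 in B1. Among the 31 columns with a final N, r was 0.958 for Musk, 0.964 for Pf4 and 0.959 for Calml3, and among the 54 without it 0.935, 0.954 and 0.974. The relation of the 3 genes to the library mean was therefore present in each prefix and in both kinds of column name. For Ehmt1, r was -0.0165 with a final N and 0.108 without it. For Ehmt2, r was -0.0186 with a final N and 0.432 without it. The latter was 0.259 once the 2 lines farthest from the median library mean were left out.

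**Figure D3:**
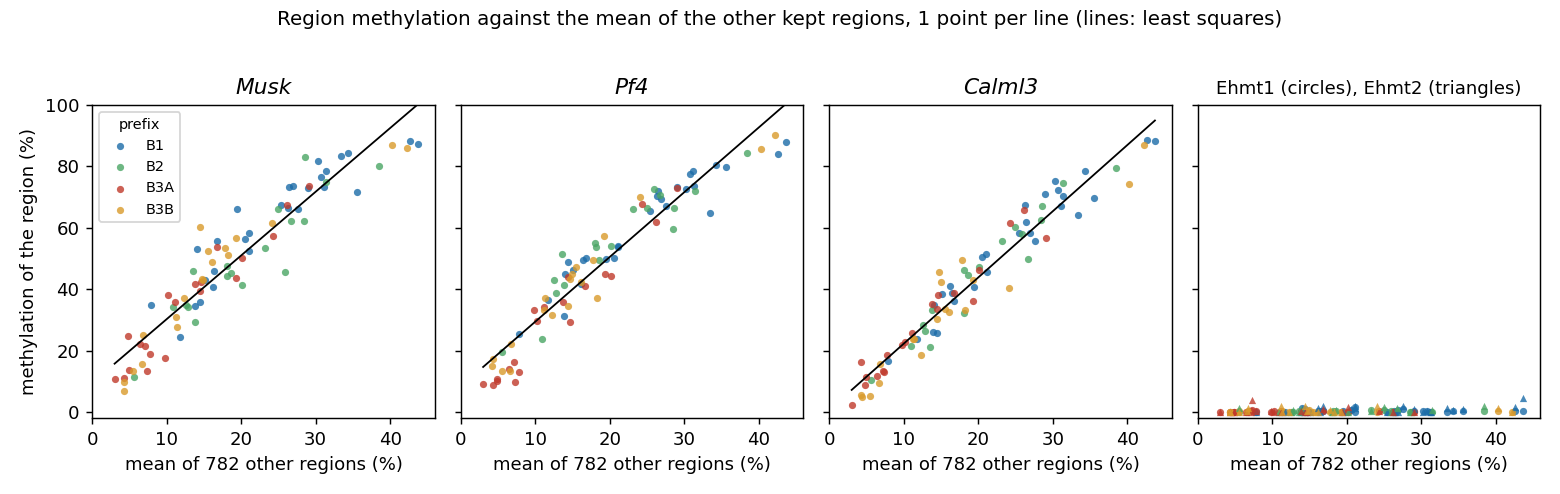
Methylation in percent of Musk, Pf4 and Calml3, and of Ehmt1 and Ehmt2 together, against the mean in percent of the 782 kept regions other than these 5; each point is a line coloured by prefix, and lines are least-squares fits. Points of the 3 genes climb with slopes of 2.07, 2.11 and 2.15 points per point, and those of Ehmt1 and Ehmt2 stay near 0 throughout.

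Between genes, r across the 85 lines was 0.926 for Musk and Pf4, 0.935 for Musk and Calml3 and 0.945 for Pf4 and Calml3. After the library mean was removed from each by regression, r was 0.261, 0.263 and 0.268. What remained between the genes was small beside what they shared with the library mean. The regions most like each gene over the 85 lines, by r across the 782 kept regions outside the members, were in genes of other kinds. For Musk they were those of Unc5a, a netrin receptor gene (r = 0.960), of the growth factor homologue Fgf12 (r = 0.957), and of Theg with Gm51808 (r = 0.956). For Pf4 they were those of Unc5a (r = 0.966), of Pik3r5, a regulatory subunit of phosphoinositide 3-kinase (r = 0.959), and of Pik3ap1 with Gm52406 (r = 0.959). For Calml3 they were those of the kinase gene Camkk1 (r = 0.965), of Cyfip2 (r = 0.964) and of Olfm1 (r = 0.963). All of these regions had means between 36.8% and 45.3%, and their r with the library mean lay between 0.9698 and 0.9784.

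The prefixes were compared because they are the one grouping that every column carries. Musk averaged 62.3% ± 17.96 in B1 lines (SD, n = 28), 49.7% ± 18.8 in B2 lines (n = 18), 34.9% ± 19.04 in B3A lines (n = 20) and 42.6% ± 23.2 in B3B lines (n = 19). Its lowest, median and highest lines were at 24.5%, 66.3% and 88.1% in B1, 11.3%, 45.7% and 83.0% among B2 lines, 10.7%, 37.03% and 73.6% among B3A lines, and 6.93%, 43.3% and 86.9% among B3B lines. B1 held the highest mean and B3A the lowest, while single lines of all prefixes overlapped over most of the range.

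Pf4 averaged 60.6% ± 16.9 in B1 lines, 54.9% ± 17.1 in B2 lines, 31.5% ± 20.3 in B3A lines and 41.3% ± 22.4 in B3B lines. Its lowest, median and highest lines were at 25.3%, 65.1% and 88.0% in B1, 19.5%, 54.5% and 84.4% among B2 lines, 8.65%, 31.4% and 73.0% among B3A lines, and 13.2%, 37.1% and 90.2% among B3B lines. The highest line of Pf4 was thus a B3B line, although B3B had the second lowest mean.

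Calml3 averaged 54.1% ± 19.8 in B1 lines, 45.5% ± 19.7 in B2 lines, 28.9% ± 18.3 in B3A lines and 32.6% ± 22.1 in B3B lines. Its lowest, median and highest lines were at 16.5%, 56.99% and 88.6% in B1, 10.4%, 46.7% and 79.4% among B2 lines, 2.33%, 24.3% and 65.6% among B3A lines, and 4.97%, 32.6% and 87.0% among B3B lines. Ehmt1 averaged 0.394% ± 0.394 in B1 lines, 0.226% ± 0.180 in B2 lines, 0.172% ± 0.184 in B3A lines and 0.156% ± 0.153 in B3B lines. Ehmt2 averaged 0.758% ± 1.001 in B1 lines, 0.542% ± 0.638 in B2 lines, 0.403% ± 0.904 in B3A lines and 0.565% ± 0.736 in B3B lines. Every prefix held lines at 0 for both Ehmt regions, and all SDs of Ehmt2 exceeded its means.

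By limma's moderated F test on log2 odds, with Benjamini-Hochberg adjustment over the 787 kept regions, the prefixes differed at Musk (adjusted p = 0.000282), Pf4 (adjusted p = 0.000108) and Calml3 (adjusted p = 0.000325). The same test called 81.6% of all kept regions, 642 of 787, and 16 of the 21 Lineage-associated regions (76.2%), so 3 of 3 is no feature of these genes. By size of p, Pf4 was 31st, Musk 163rd and Calml3 189th of the 787. The order of prefixes was also the common one, since 72.6% of kept regions were called with B1 highest and 75.9% with B3A lowest. The test called Ehmt1 too (adjusted p = 0.0450), on a difference of 0.238 percentage points between B1 and B3B, and 7 of the 12 alternatives tried gave no call for it. It was not called without the column with the final N of the pair alike in name (adjusted p = 0.0818), where Ehmt1 had 1.11%, against 0.493% in the other column of the pair. Ehmt2 was not called (adjusted p = 0.469).

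Of the 6 pairs of prefixes, 3 differed at each of the 3 genes. The B1 mean exceeded the B3A mean by 27.5 percentage points at Musk, 29.1 at Pf4 and 25.3 at Calml3, a sign that turned at Calml3 once the library mean was a covariate. On the log2 odds scale the difference B1 minus B3A was 1.84 ± 0.39 (SE) at Musk with limma's adjusted p = 5.22e-05, 2.01 ± 0.38 at Pf4 with adjusted p = 2.34e-05, and 1.81 ± 0.41 at Calml3 with adjusted p = 0.000126. Over all 787 kept regions the median of this difference was 1.21 on the log2 odds scale and 10.1 percentage points, and 85.3% of regions were called with B1 higher. Both in points and in log2 odds the 3 genes lay above those medians. They were chosen by level, however, and the 134 other kept regions of like mean followed the library mean with a median slope of 2.00. Lying above a median over regions of every level is therefore not read as a trait of the 3 genes. For this pair of prefixes, a comparison with regions of like mean was not made.

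B1 also exceeded B3B, by 19.7 points at Musk, 19.4 at Pf4 and 21.5 at Calml3, with limma's adjusted p of 0.00542, 0.00687 and 0.00376, where 67.1% of kept regions were called with B1 higher. B2 exceeded B3A by 14.9 points at Musk, 23.4 at Pf4 and 16.6 at Calml3, with adjusted p of 0.0327, 0.00646 and 0.0203 and a sign that the covariate turned at Musk and Calml3, where 72.4% of kept regions were called with B2 higher. B1 minus B2, B2 minus B3B and B3A minus B3B were not called at any of the 3 genes by limma, and 2 of these 9 tests had an unadjusted p under 0.05. Across all kept regions 0.00% were called with B1 above B2, 0.254% with B2 above B3B and 0.00% with B3A below B3B. Their intervals were wide: for B1 minus B2 at Pf4 the 95% interval ran from -0.38 to 1.16 on the log2 odds scale. At Ehmt1, B1 exceeded B3A by 0.222 points and B3B by 0.238 points, both with limma's adjusted p = 0.0216 and with a sign that centring by the library mean turned.

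The library mean differed between prefixes in the same order, at 24.4% ± 9.26 for B1 lines, 20.7% ± 8.43 for B2 lines, 12.8% ± 7.73 for B3A lines and 15.8% ± 10.5 for B3B lines (SD). As a covariate the library mean was taken on the log2 odds scale, as each line's mean of log2 odds over the same regions, not as the percentages above. With this covariate in limma's fit, 3.30% of kept regions were called and 0 of the 5 members. The adjusted p was 0.237 for Musk, 0.189 for Pf4, 0.377 for Calml3, 0.163 for Ehmt1 and 0.958 for Ehmt2. The unadjusted p was 0.0396 for Pf4, 0.0245 for Ehmt1 and 0.0578 for Musk. B1 minus B3A then was 0.14 at Musk and 0.33 at Pf4 on the log2 odds scale, and it turned sign to -0.08 at Calml3. B2 minus B3A likewise turned to -0.27 at Musk and -0.20 at Calml3, none of them called. In this fit the differences between prefixes at these genes cannot be told apart from the level of the whole library.

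A different treatment subtracted the library mean from each fraction. On that scale B1 still exceeded B3A by 15.8 points at Musk, 17.5 at Pf4 and 13.6 at Calml3, with limma's adjusted p of 8.83e-05, 1.59e-05 and 0.000196, while Ehmt1 and Ehmt2 turned to -11.4 and -11.3 points. Of the regions called for this pair, 254 were then higher in B1 and 349 lower, against 671 higher and 0 lower without centring, and the median over all regions moved to -1.52 points. By construction, subtraction lowers B1 minus B3A by the same number of points at each of the 5 regions. A region that follows the library mean with a slope above 1 point per point tends to keep a positive difference. Where the slope is near 0, the difference turns negative.

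**Figure D4:**
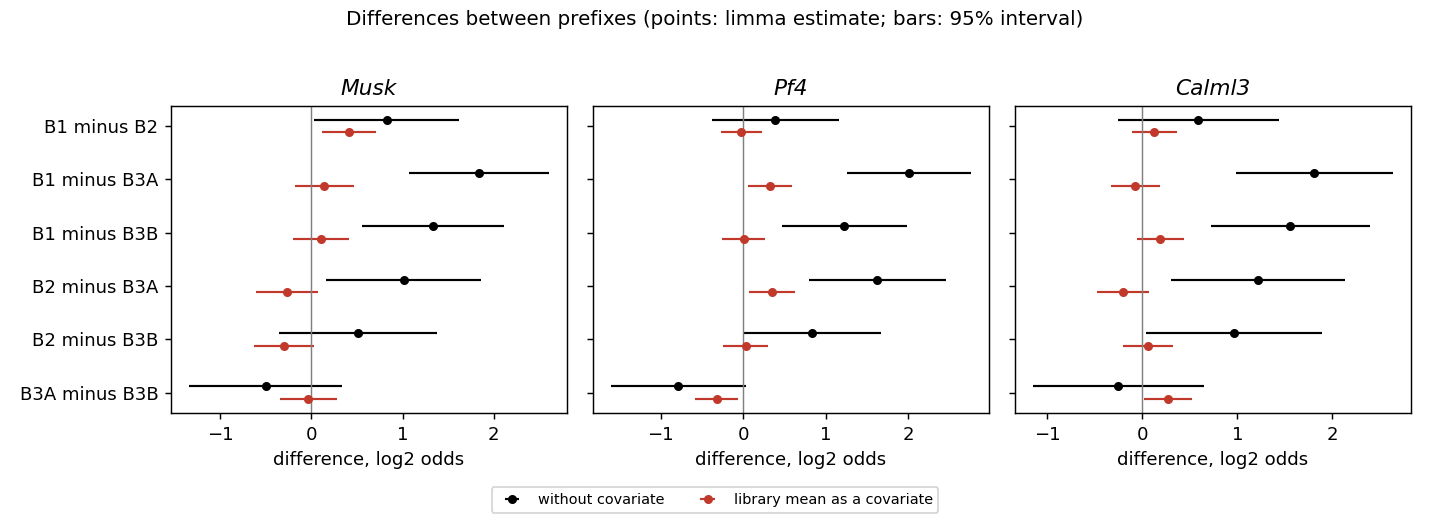
Differences between pairs of prefixes on the log2 odds scale at Musk, Pf4 and Calml3, as limma estimates with 95% intervals, without a covariate (black) and after adding the library mean as one (red). B1 minus B3A is 1.84, 2.01 and 1.81 without the covariate and 0.14, 0.33 and -0.08 with it, so the sign turns at Calml3.

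The columns with a final N are spread unevenly over prefixes, so the means were also taken within each kind of name. Among columns without it, Musk averaged 61.2% ± 18.7 in B1 lines (SD, n = 22) and 26.1% ± 15.9 in B3A lines (n = 4), Pf4 58.8% ± 18.1 in B1 and 21.2% ± 13.6 in B3A, and Calml3 52.9% ± 20.7 in B1 and 21.3% ± 10.3 in B3A. Among columns with it, Musk averaged 66.3% ± 15.7 in B1 lines (n = 6) and 37.03% ± 19.6 in B3A lines (n = 16), Pf4 67.5% ± 9.97 in B1 and 34.1% ± 21.2 in B3A, and Calml3 58.7% ± 17.2 in B1 and 30.7% ± 19.6 in B3A. B1 exceeded B3A at each gene in both kinds of column.

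The deposited table of single CpGs covers 7 CpGs of the Pf4 region, 6 of Calml3, 44 of Ehmt1, 1 of Ehmt2 and 0 of Musk. Neighbouring CpGs are read on the same molecules and are not replicates of each other. Limma's F test over 7917 CpGs called all 7 at Pf4 (adjusted p between 0.000130 and 0.000932), all 6 at Calml3 (between 0.000455 and 0.0497), 0 of 44 at Ehmt1 (lowest adjusted p = 0.156, with 0 of 44 also at an unadjusted p under 0.05) and not the 1 at Ehmt2 (adjusted p = 0.120). Of all CpGs, 45.2% were called. B1 was highest and B3A lowest at every one of the 13 CpGs of Pf4 and Calml3, so the difference between prefixes was not confined to a few sites.

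Within the Pf4 region the level depended on the CpG. The CpG at +44 from the start site, the last capitalised CpG of the printed Pf4 sequence, averaged 28.3% ± 21.8 (SD, n = 85). It lay below the mean of the other 6 by 21.7 ± 9.98 points, and in 84 of 85 lines. The CpGs at +168 and +177 averaged 57.9% ± 22.3 and 58.1% ± 20.8, the highest of the region, and that at +223 averaged 39.3% ± 23.03. Among the measured CpGs, methylation was thus lowest at the first and next lowest at the last, while the CpG at +17 is not in the table of single CpGs. The +44 CpG lay below the others by a mean of 20.8 points in B1 lines, 25.2 in B2 lines, 18.6 in B3A lines and 22.8 in B3B lines.

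In the Calml3 region 1 CpG stood above its neighbours. At base 3804409 of chromosome 13, 265 bases into the region, methylation averaged 54.7% ± 22.5 (SD, n = 85), against 30.8% for the mean of the other 5. It was higher than that mean in 85 of 85 lines, by 23.9 ± 10.8 points. The other CpGs averaged between 26.3% and 32.99%, including those 6 and 12 bases further on. The lead held by prefix, with a mean of 24.6 points in B1 lines, 24.7 in B2 lines, 21.6 in B3A lines and 24.5 in B3B lines. These CpG means were taken after the values had been seen, so they carry no test.

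**Figure D5:**
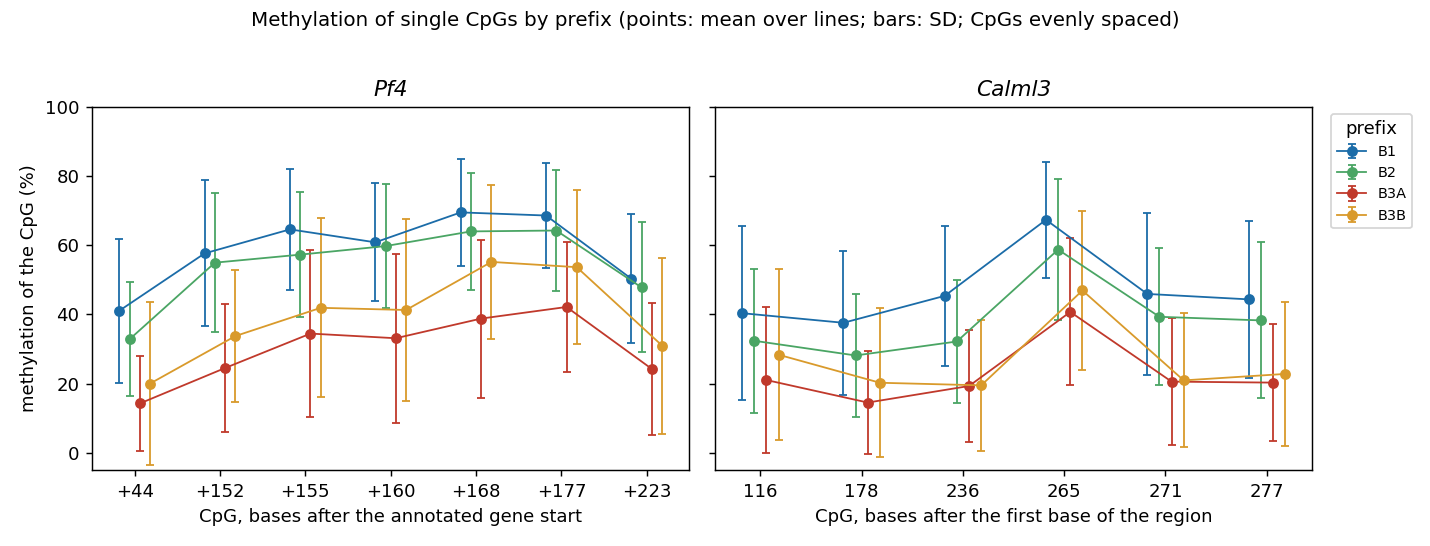
Mean methylation in percent with the SD over lines of the single CpGs of Pf4 (horizontal axis: bases after the annotated gene start) and Calml3 (bases after the first base of the region), by prefix; CpGs are evenly spaced, not to scale. At Pf4 the CpG at +44 is lowest at 28.3% over all lines, and at Calml3 the CpG 265 bases into the region leads at 54.7%.

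CpG means differed from the deposited region averages. The table of single CpGs lacks sites of some regions, such as all those of Musk, but the cause of the gaps was not tested. At Pf4 the mean over CpGs was 46.9%, against 48.2% in the deposited region average, with r = 0.995 over the 85 lines. At Calml3 it was 34.8%, against 41.5% deposited, with r = 0.983, so lines kept nearly the same order at a lower level. At Ehmt1 88.7% of the single-CpG values were 0, the highest was 7.50%, and CpG means ran between 0.0284% and 1.014%. Near-0 methylation was therefore shared by all 44 CpGs of that region. The single CpG of Ehmt2 was at 0 in 92.9% of lines.

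Few other genes of the same cell types had a target region, so the genes cannot be set within their pathways. Of 17 genes of the neuromuscular junction and muscle, 2 had one: Musk and Chrnb1, a subunit of the muscle acetylcholine receptor that Musk signalling gathers. The region counted for Chrnb1, chr11:69797873-69798373, belongs to another category and lies within 5 kb of the gene, not in it. It averaged 51.7% in B1 lines, 45.3% in B2 lines, 29.6% in B3A lines and 33.2% in B3B lines. Over all lines its mean was 41.01% ± 21.5 (SD, n = 85), and it passed limma's F test (adjusted p = 0.00117). Of 17 megakaryocyte and platelet genes, 2 had one: Pf4 and the neighbouring platelet chemokine gene Ppbp, which lies within 5 kb of the same region. Calml3 was the 1 gene of 18 in the epidermis list, and Ehmt1 and Ehmt2 were the 2 of 13 genes of histone H3 lysine 9 methylation and its partners.

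Of 11 genes that mark naive embryonic stem cells, 4 had a target region, and the label could be checked only by methylation. The region near Nanog averaged 0.360% ± 0.599 (SD, n = 85) and that of Zfp42 0.792% ± 1.44 (n = 80 lines with a value). The region overlapping Tbx3 averaged 0.191% ± 0.381 (n = 83), and another within 5 kb of Tbx3 averaged 1.66% ± 1.45 (n = 85). The region near Dppa3, with 6.26% ± 6.47 in the 64 lines with a value, was not among the kept regions. The means at Nanog, Zfp42 and Tbx3 were all under 2%, closer to Ehmt1 and Ehmt2 than the mean at Dppa3, and all 4 genes had means below those of Musk, Pf4 and Calml3.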

How the data were processed

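DNA methylation was measured by EM-seq with Twist capture in mouse embryonic stem cell lines. The values are methylation fractions, which the authors deposited as averages per target region and singly per CpG, and the names of both tables state a coverage filter of 10. The submitters' processing notes name Bismark, Bowtie2, Trim Galore 0.6.4 and mm10; the sources used here give no roles, settings or read depth. Fractions are printed as percent, and no counting interval could be computed. Empty cells of the region table were treated as missing.

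Columns were matched to titles by name, and each was grouped by its prefix; no 2 columns held identical values. Of the 85 columns, 44 matched 1 title and the other 41 were used only by prefix. These 41 named lines with 2 titles or carried a final N that the line's title lacks, apart from 1 that matched no title at all. Kept regions had a value in at least 80% of columns. Prefixes were compared with limma 3.58.1 (R 4.3.3). Its input was log2((fraction + 0.01)/(1 - fraction + 0.01)), and it used Benjamini-Hochberg adjustment over all kept regions, or over all CpGs, and a threshold of 0.05; all prefixes shared 1 estimate of the spread. The fit was tested on simulated data. Alternatives changed the offset, the filter, the scale, the columns and the weights, or added the library mean. The covariate was the mean of log2 odds over the kept regions other than the members, while centring subtracted their mean fraction. Genes and windows came from RefSeq tables of GRCm38.p6. Python 3.11.15, NumPy 2.4.6, pandas 2.3.3, SciPy 1.17.1 and matplotlib 3.10.9 did the rest. Named genes were the 5 members, the 3 Lineage-associated regions with the highest and the 3 with the lowest mean, the members' neighbours in that order, the 3 regions most correlated with each gene, and the listed genes with a target region. A330102I10Rik and single CpGs were added after their values were seen. The members and lists were chosen with earlier results of these data known.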

Additional observations from a re-analysis of the deposited data

How the results depend on the processing

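Under the alternatives, 125 recomputed values kept their direction and their side of the threshold, or moved by less than the spread between lines; 10 calls at members were lost, 3 values turned sign, 1 of them with a lost call, and 11 moved further. The calls at Musk, Pf4 and Calml3 held under every alternative tried except the library mean as a covariate, where limma's adjusted p was 0.237, 0.189 and 0.377, the sign of B1 minus B3A turned at Calml3, and the number of kept regions called fell to 26, against 642 without it. The highest adjusted p of the other settings was 0.00762 for Musk, 0.00640 for Pf4 and 0.0113 for Calml3. At Calml3 the prefix with the lowest mean changed from B3A to B3B without the 16 columns of lines with 2 titles. Ehmt1 lost its call with an offset of 0.05 (adjusted p = 0.100), untransformed fractions (0.238), the covariate (0.163), columns without a final N (0.423), without the 16 columns of lines with 2 titles (0.136), CpG means (0.0937), and without the final N column of the pair alike in name (0.0818), an alternative chosen after seeing the data. Centring by the library mean, which lowers regions near 0 by construction, reversed Ehmt1 (adjusted p = 0.000521) and Ehmt2 (adjusted p = 0.000500). Against the mean of the other Lineage-associated regions, r was 0.892 for Musk, 0.928 for Pf4 and 0.928 for Calml3. Within prefixes r moved to 0.950 for Calml3 in B3B, -0.171 for Ehmt1 in B1, -0.203 for Ehmt1 in B3A and -0.0428 for Ehmt2 in B3A; the cause was not tested. The spread of Ehmt1 was 0.165 points and that of Ehmt2 0.224 as a scaled median absolute deviation, and the SD of Ehmt2 from its single CpG was 1.30 points. A permutation test of the F statistic over prefixes (100000 resamples, unadjusted) gave p = 9e-05 for Musk, 1e-05 for Pf4, the smallest it can give, 0.00015 for Calml3, 0.00725 for Ehmt1 and 0.567 for Ehmt2. With depth unknown, no limit can be set on values of 0. No paired analysis was possible because the labels give no replicate numbers that pair lines across prefixes.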
